A study of Mus musculus with 18 samples.

Results

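The comparison described here sets 6 libraries of brain tissue around EO771-BrM3 tumours, a mouse breast cancer line selected for growth in the brain, against 6 libraries of brain tissue around 482N1 tumours, the lung cancer line of the same study. The libraries were chosen by their cell line label, and the genes by their place in the genome: of 55416 genes in the count table, the 48170 that the annotation puts on a chromosome other than X and Y were kept, 3965 on X or Y were left out, and 3281 with no place in the annotation were left out. Of the 48170, 16511 passed the filter on low counts and were tested. All mice were labelled WT and received 40000 tumour cells, and the brains were taken after 10 days. Each library came from 1 brain, and RNA was made from tissue resected at the tumour border. The remaining 6 libraries of the series came from the melanoma model B16-F10_BrM4. They entered the low-count filter, the scaling and the estimate of the spread, but not the contrast. None of the 18 libraries came from a tumour-free brain. Strain, sex and age of the mice are not given in the sources used here, and each model rests on 1 injected line.

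Because tumour and host are both mouse, a transcript counted here could come from tumour cells left in the resected tissue, from brain cells or from infiltrating blood cells, and these sources cannot be told apart. In such bulk tissue, fewer cells of a type and less RNA per cell cannot be told apart either. The tissue around a brain metastasis typically holds reactive astrocytes, activated microglia and recruited leukocytes. Astrocytes and microglia answer injury through interferon and NF-kB signalling, and tumour cells remodel the surrounding matrix through secreted proteases and growth factors of the TGF-beta family. Epithelial cancer lines also keep part of the keratin, adhesion and transcription factor programme of the tissue they arose from.

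Total counts of the breast libraries were 7366250 to 13544054, numbers 18 and 19 being the shallowest, and those of the lung libraries 12070005 to 14533877. Levels are in CPM, a gene's reads per 1000000 reads of the library after scaling by edgeR. In a single library, 3 reads, the limit that a count of 0 allows, correspond to 0.206 to 0.407 CPM. In the 12 libraries, the first principal component held 60.2% of the variance and separated the models. Breast libraries 18 and 19 were poor in long transcripts. Their slope of log2 level on log2 transcript length was -0.279 and -0.223, while the remaining 10 libraries had slopes of -0.124 to 0.150. Snap25, Mbp and Gfap, which mark neurons, oligodendrocytes and astrocytes, stood at 1230.5 CPM or more in each of the 12 libraries. Lung libraries 8 and 10 were low in most leukocyte and interferon lists. The part of these 4 libraries in the results was not tested beyond leaving them out, and for some lists the counts without them are given beside the result.

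A total of 2990 genes, 18.1% of those tested, passed an adjusted p of 0.05. Of these, 1809 (11%) were higher in the breast model and 1181 (7.15%) were lower, and the median log2 fold change of all 16511 genes was -0.02. More than 2-fold, 789 genes were higher and 483 lower. The 6 breast and 6 lung values did not overlap at all for 2429 genes (14.7%). These shares are the background for the counts of gene lists below that come from edgeR's main fit. Counts from other settings have their own background. Without the libraries poor in long transcripts, 1934 of 16731 tested genes were higher and 2216 lower. Without lung 8 and 10, 1247 of 16872 tested genes were higher and 925 lower. Each list is described by its counts and its median without a test of the list. Values of a gene are given as the lowest, median and highest CPM of the 6 libraries of a model. The log2 fold change of breast over lung (log2FC) follows with its standard error (SE), as log2FC ± SE, and with edgeR's adjusted p.

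Promoters of genes on which the interferon, NF-kB, chemokine and protease results turn are shown first, as RefSeq lists them for GRCm38.p6. Each line is a 120-base stretch read 5′ to 3′ on the gene's strand, positions are counted from the transcription start as 0, and capitals mark a match to the motif searched on both strands. For interferon-stimulated genes the motif was the core of the interferon-stimulated response element, TTCNNTTTC. For NF-kB and chemokine genes it was a kappa-B motif, GGGANNTTC, and for 2 matrix metalloproteinases the AP-1 motif TGANTCA. A kappa-B match can overlap itself when the site is a palindrome, so that 2 matches share 1 run of capitals. The 6 interferon and NF-kB genes are the called members of their lists with the smallest p, while Cxcl1, Cxcl2, Mmp3 and Mmp10 were chosen after their values were seen.
Rsad2 (chr12:26456508-26456627, - strand, -175 to -56): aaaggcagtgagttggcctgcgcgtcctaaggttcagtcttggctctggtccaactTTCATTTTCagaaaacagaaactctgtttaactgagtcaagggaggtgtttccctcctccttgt
Ifi44 (chr3:151749901-151750020, - strand, -110 to 9): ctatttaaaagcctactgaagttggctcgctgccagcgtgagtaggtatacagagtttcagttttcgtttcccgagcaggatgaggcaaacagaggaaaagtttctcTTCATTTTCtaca
Cmpk2 (chr12:26469105-26469224, + strand, -110 to 9): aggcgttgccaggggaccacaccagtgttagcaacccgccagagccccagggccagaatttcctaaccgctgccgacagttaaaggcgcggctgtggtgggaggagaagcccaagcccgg
Nfkbia (chr12:55492654-55492773, - strand, -126 to -7): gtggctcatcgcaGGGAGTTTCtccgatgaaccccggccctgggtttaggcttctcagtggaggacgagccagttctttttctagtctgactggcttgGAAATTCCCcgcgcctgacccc
Nfkb2 (chr19:46305680-46305799, + strand, -250 to -131): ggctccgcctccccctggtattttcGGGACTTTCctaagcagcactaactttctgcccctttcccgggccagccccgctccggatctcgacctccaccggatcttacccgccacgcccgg
Rela (chr19:5637431-5637550, + strand, -110 to 9): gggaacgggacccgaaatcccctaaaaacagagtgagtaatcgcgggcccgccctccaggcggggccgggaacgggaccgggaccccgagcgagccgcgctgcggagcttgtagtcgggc
Cxcl1 (chr5:90891119-90891238, + strand, -126 to -7): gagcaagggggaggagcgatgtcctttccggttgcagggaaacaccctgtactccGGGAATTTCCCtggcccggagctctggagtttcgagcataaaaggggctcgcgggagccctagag
Cxcl2 (chr5:90903747-90903866, + strand, -152 to -33): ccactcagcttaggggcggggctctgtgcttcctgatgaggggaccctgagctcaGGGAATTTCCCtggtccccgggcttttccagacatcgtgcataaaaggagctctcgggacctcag
Mmp3 (chr9:7445712-7445831, + strand, -110 to 9): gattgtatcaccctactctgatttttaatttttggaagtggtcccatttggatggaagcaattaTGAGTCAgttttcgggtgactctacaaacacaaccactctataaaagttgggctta
Mmp10 (chr9:7502222-7502341, + strand, -120 to -1): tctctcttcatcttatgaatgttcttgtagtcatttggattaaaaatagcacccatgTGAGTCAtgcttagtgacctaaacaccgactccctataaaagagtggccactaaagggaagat
The response element core stood at -119 in Rsad2 and at -3 in Ifi44, and these letters were not in the Cmpk2 window. Of the 27025 genes with a promoter entry, 9.76% held that core. In the type I interferon list it was 16 of 24 members with an entry, and 6 of the 10 called ones. The kappa-B letters were found at -113 and -28 in Nfkbia, in 2 of the 3 entries of Nfkb2 and not in Rela. They stood in 4.47% of all genes and in 3 of 20 members of the NF-kB list. In Cxcl1 and Cxcl2 a palindromic match began at -71 and -97. The AP-1 letters stood at -46 in Mmp3 and -63 in Mmp10, and 8.97% of genes held them. A match describes the sequence only, and binding was not measured.

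Genes of the epithelial and endodermal lineages were mostly higher in the lung model. Of 23 epithelial genes listed, 13 passed the count filter. Of these 8 were lower and 2 higher in the breast model, and their median log2FC was -1.02. Some, such as Krt19 and Ovol1, were nearly unread in 1 model and passed the filter through the other. They had to differ, so the count and the median are a description. Krt18, a keratin of simple epithelia, stood at 113, 333 and 589 CPM in lung and 0.946, 2.08 and 3.52 CPM in breast (log2FC -7.35 ± 0.42, adjusted p = 2.25e-10). Krt19, a further simple-epithelial keratin, ran at 47.4, 85.2 and 144 CPM in lung and 0, 0.108 and 0.280 CPM in breast (log2FC -9.62 ± 0.42, adjusted p = 1.15e-11). The adhesion molecule E-cadherin, Cdh1, showed 47.4, 69.2 and 97 CPM in lung and 1.95, 2.97 and 3.31 CPM in breast (log2FC -4.70 ± 0.26, adjusted p = 1.22e-10). For these 3 genes every lung library lay above every breast library. Krt8, the partner of Krt18, differed less and with overlap, at 58.7, 100.02 and 161 CPM in breast against 98.3, 289.6 and 484 CPM in lung (log2FC -1.54 ± 0.32, adjusted p = 0.00171). The 2 epithelial genes higher in breast were St14 and Ovol1. St14, the serine protease matriptase, ran at 77.1, 93.1 and 136 CPM in breast against 1.99, 3.40 and 6.41 CPM in lung (log2FC 4.64 ± 0.25, adjusted p = 1.03e-10). The repressor Ovol1 had 205 reads in breast and 1 in lung. The tight junction gene Cldn6, which is in no list here, ran at 8.38, 25.8 and 30.1 CPM in lung. It had 1820 reads there and 1 in breast. The apical water channel Aqp5 stood at 0, 0.218 and 0.419 CPM in breast against 63.4, 84.1 and 113 CPM in lung (log2FC -8.81 ± 0.38, adjusted p = 1.13e-11).

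Of the 27 gut and liver genes listed, 10 passed the filter. Of these 9 were lower and 1 higher in the breast model, and the median was -3.12. As several of these are nearly unread in one model, they passed the filter through the other and had to differ, so the count is a description. Apob, the carrier protein of hepatic and intestinal lipoproteins, ran at 0.136, 0.402 and 0.946 CPM in breast against 42.1, 76.6 and 95.9 CPM in lung (log2FC -7.18 ± 0.37, adjusted p = 7.17e-11). The nuclear receptor Hnf4a, which directs hepatic and intestinal genes, had 1747 reads in lung and 3 in breast. The ratio was 499.5 with a 95% counting interval of 171 to 2425. Foxa1, a pioneer factor of endoderm, stood at 2.28, 2.63 and 3.63 CPM in breast against 18.2, 21.3 and 27.9 CPM in lung (log2FC -2.97 ± 0.28, adjusted p = 1.87e-07). Gata6, a further endodermal factor, ran at 0, 0.114 and 0.280 CPM in breast against 1.55, 2.19 and 2.51 CPM in lung (log2FC -4.21 ± 0.44, adjusted p = 7.66e-07). No values of these 4 genes overlapped between the models. The homeobox gene Nkx2-3, known from gut mesenchyme and spleen, ran at 13.7, 20.3 and 31.4 CPM in lung and 0, 0.0374 and 0.150 CPM in breast (log2FC -8.33 ± 0.41, adjusted p = 4.02e-11). The exception was Afp, alpha-fetoprotein, at 36.8, 57.2 and 120.1 CPM in breast against 6.69, 11.8 and 16.6 CPM in lung (log2FC 2.43 ± 0.33, adjusted p = 1.95e-05). Lineage genes of the lung epithelium were not called by edgeR: 5 of 11 passed the filter and 0 of them the test. Among the 5 an unadjusted p under 0.05 was reached by 1, and DESeq2 and limma called 0 and 0. Their summed level was 39.5 to 74.9 CPM in lung and 56.9 to 105 CPM in breast libraries.

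Genes normally kept to germ cells and early embryos, and homeobox genes of the body axis, lay the other way. Of 28 germline and pluripotency genes 11 passed the filter, and 7 of these were higher and 1, Tdrkh, was lower. Tex19.1, a germline defence gene against transposons, had 2596 reads in breast and none in lung. With 3 reads over the 6 lung libraries as the limit, it was at least 1009-fold higher. Dppa4, a chromatin protein of pluripotent cells, had 1188 reads and none, at least 462-fold higher. Its partner Dppa2 ran at 3.54, 7.76 and 11.9 CPM in breast with 3 reads in lung, a ratio of 179 (95% counting interval 60.8 to 869.9). Dnmt3l, the cofactor of de novo DNA methylation in germ cells, stood at 3.74, 4.75 and 10.6 CPM in breast against 0, 0.161 and 0.572 CPM in lung (log2FC 4.38 ± 0.45, adjusted p = 6.46e-07). Piwil2, a piRNA-binding Argonaute, was read in both models at 5.32, 8.23 and 12.7 CPM in breast against 1.01, 1.28 and 2.08 CPM in lung (log2FC 2.63 ± 0.32, adjusted p = 5.44e-06). Each of these 5 genes separated the 12 libraries without overlap. Of genes outside the list, Tex101, a testis surface protein, had 1485 reads in breast and 0 in lung, at least 577-fold higher. Morc1, a germline chromatin ATPase, had 1225 reads in breast and 2 in lung. Nlrp4c, an oocyte and embryo NLR gene, stood at 20.2, 32.9 and 55.8 CPM in breast against 0, 0.0728 and 0.0830 CPM in lung (log2FC 9.11 ± 0.41, adjusted p = 1.31e-11). Zp3, an egg coat protein, ran at 5.91, 10.02 and 13.7 CPM in breast with 2 reads in lung, a ratio of 348 (95% counting interval 95.9 to 2880). Of 39 Hox and developmental homeobox genes only 8 passed the filter, and 7 of them were higher. Their median was 8.22, or 6.51 with genes unread in lung set to their lower bound. As with the gut list, tested members of the germline and Hox lists mostly passed the filter through 1 model, so these counts are a description. Hoxd9 stood at 3.54, 5.55 and 6.29 CPM in breast with no read in lung, at least 134-fold higher. Its neighbours Hoxd8 and Hoxd10 had 409 and 479 reads in breast and 1 each in lung. Hoxb3 ran at 1.23, 1.46 and 1.96 CPM in breast with 1 read in lung, a ratio of 114 (95% counting interval 20.03 to 4558). Hoxb6 had 245 reads in breast and none in lung. Markers of mammary epithelium were thin, since 8 of 18 passed the filter. The only call was Tfap2a, a transcription factor of neural crest and mammary epithelium, at 7.04, 7.88 and 14 CPM in breast against 0.203, 0.371 and 0.540 CPM in lung (log2FC 4.69 ± 0.44, adjusted p = 1.88e-07).

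Cell cycle control genes differed in both directions. The neighbouring Cdk inhibitor genes Cdkn2a and Cdkn2b were close to unread in breast. Cdkn2a, which encodes p16 and p19Arf, stood at 109, 162 and 229 CPM in lung and 0.273, 0.686 and 0.789 CPM in breast (log2FC -8.01 ± 0.28, adjusted p = 7.50e-13). Cdkn2b ran at 40.2, 54.8 and 72.6 CPM in lung and 0.867, 1.41 and 1.65 CPM in breast (log2FC -5.36 ± 0.25, adjusted p = 1.73e-11). Trp53, the p53 tumour suppressor, was higher at 56.6, 61.5 and 74.2 CPM in breast against 21, 24.7 and 25.9 CPM in lung (log2FC 1.38 ± 0.19, adjusted p = 2.25e-05). So was the inhibitor Cdkn2c, at 24.6, 37.1 and 43.1 CPM in breast against 8.32, 9.85 and 12.4 CPM in lung (log2FC 1.82 ± 0.27, adjusted p = 5.12e-05). All 4 genes had separate ranges. Of the 22 genes of this list 6 were higher and 3 lower. Of 25 proliferation genes 8 were higher and none lower, with a median of 0.70. The replicative helicase subunit Mcm7 ran at 93.7, 119.7 and 154 CPM in breast against 32.5, 52.6 and 68.7 CPM in lung (log2FC 1.19 ± 0.30, adjusted p = 0.00783). The mitotic activator Cdc20 stood at 46.4, 57.5 and 91.4 CPM in breast against 12.9, 21.3 and 33.6 CPM in lung (log2FC 1.52 ± 0.35, adjusted p = 0.00405). Top2a, at 138, 167 and 214 CPM in breast against 61.5, 106 and 141 CPM in lung, did not pass (log2FC 0.73 ± 0.34, adjusted p = 0.156). Without lung libraries 8 and 10, 1 of the 25 was called, so the proliferation count depends on those 2 libraries.

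**Figure D1:**
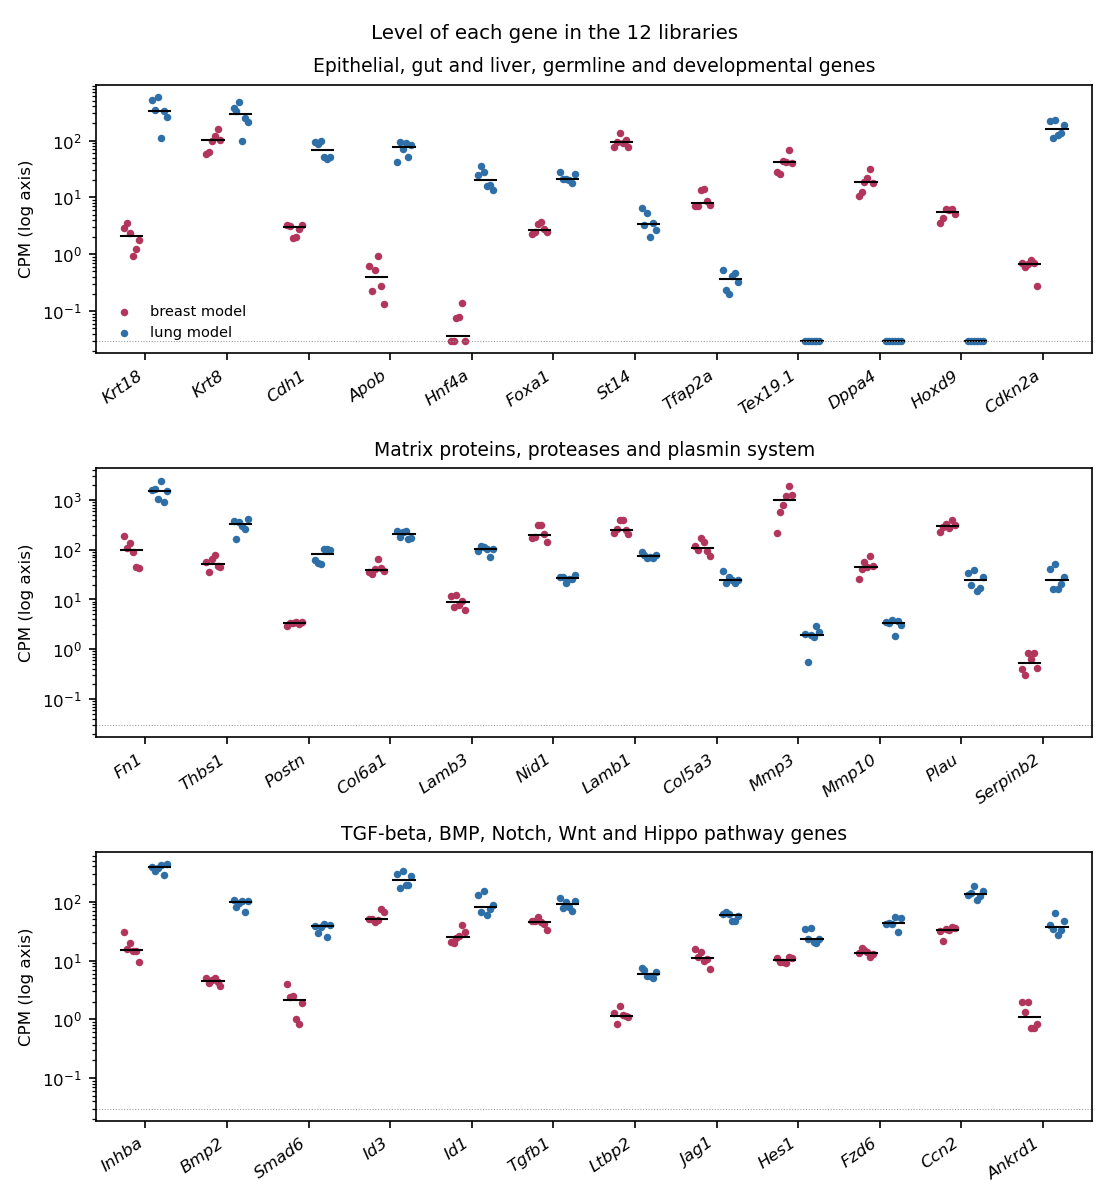
Level in CPM (log axis) of 36 genes in each of the 6 breast and 6 lung libraries, 1 point a library and a bar at the median, with values of 0 drawn on the dotted line. Epithelial and gut genes, Fn1, Postn and the TGF-beta family lie higher in lung, while St14, Tex19.1, Mmp3, Nid1 and Plau lie higher in breast.

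Matrix genes changed in both directions and in blocks. Of 28 matrix glycoproteins and crosslinkers 26 were tested, 13 were lower and 5 higher in breast, and the median was -0.73. Without the libraries poor in long transcripts 14 were lower, and without lung 8 and 10, 12. Fn1, fibronectin, stood at 914, 1530.3 and 2468 CPM in lung and 43, 98.8 and 189.6 CPM in breast (log2FC -3.91 ± 0.41, adjusted p = 8.57e-07). Thbs1, thrombospondin 1, ran at 163, 329.7 and 407 CPM in lung and 35.9, 51.7 and 76.8 CPM in breast (log2FC -2.52 ± 0.28, adjusted p = 2.04e-06). The glycoprotein Fbln2 stood at 100.2, 143 and 199 CPM in lung and 16.9, 30.2 and 43.7 CPM in breast (log2FC -2.23 ± 0.24, adjusted p = 8.99e-07). The ranges of these genes did not meet. Postn, periostin, ran at 52.5, 81 and 105 CPM in lung and 2.91, 3.37 and 3.55 CPM in breast (log2FC -4.57 ± 0.22, adjusted p = 2.65e-11). Nid1, a nidogen that links laminin to collagen IV in basement membranes, went the other way at 146, 196 and 316 CPM in breast against 21, 27.1 and 31.1 CPM in lung (log2FC 3.06 ± 0.22, adjusted p = 4.30e-09).

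Of 29 collagen genes 28 were tested, 11 were lower and 6 higher. The collagen VI chains Col6a1 and Col6a2, which form microfibrils around cells, were both lower. Col6a1 ran at 164, 204 and 239 CPM in lung and 32.6, 39.2 and 66.2 CPM in breast (log2FC -2.26 ± 0.20, adjusted p = 7.13e-08). Col6a2 ran at 78.1, 107 and 135 CPM in lung and 9.96, 13.6 and 15.7 CPM in breast (log2FC -2.96 ± 0.16, adjusted p = 1.21e-10). Among fibrillar collagens Col1a1, Col1a2 and Col3a1 had a log2FC of -3.53, -2.98 and -2.79. In all 3 genes lung 7 and 11 held the highest values, and without lung 11 the log2FC was -2.78, -2.48 and -2.08. Col1a1 ran at 28.5, 70.3 and 486 CPM in lung and 6.29, 10.9 and 25.4 CPM in breast. Col3a1 overlapped between the models, at 12.3, 55.9 and 375 CPM in lung and 12.1, 17.7 and 23.3 CPM in breast, and limma did not call it (adjusted p = 0.0558). The network-forming Col8a1 had -1.09. Col5a3, a minor fibrillar chain, was higher at 75.6, 110.1 and 172 CPM in breast against 21.1, 25 and 38.2 CPM in lung (log2FC 2.15 ± 0.21, adjusted p = 3.00e-07). So was Col17a1, a hemidesmosome collagen, at 2.32, 3.48 and 3.97 CPM in breast against 0.164, 0.581 and 0.861 CPM in lung (log2FC 2.56 ± 0.29, adjusted p = 2.00e-06). Col5a1 at 54.5, 65.9 and 106 CPM in breast against 72.4, 83.8 and 100.2 CPM in lung did not pass (adjusted p = 0.555). Basement membrane laminins split by chain. Lamb3, a chain of the epithelial laminin-332, stood at 73.1, 106 and 119.6 CPM in lung and 6.28, 8.70 and 12.5 CPM in breast (log2FC -3.47 ± 0.20, adjusted p = 2.25e-10). Lamb1 and Lamc1, chains of the vascular and early basement membrane laminins, were higher in breast. Lamb1 ran at 203, 256 and 401 CPM in breast against 67.5, 75.9 and 90.002 CPM in lung (log2FC 1.92 ± 0.23, adjusted p = 4.13e-06). Lamc1 ran at 117, 164 and 247 CPM in breast against 50.2, 67.7 and 74.2 CPM in lung (log2FC 1.47 ± 0.21, adjusted p = 4.61e-05). Among integrins, Itga1, a collagen and laminin receptor subunit, ran at 28.3, 47.6 and 65.8 CPM in breast against 11.2, 13.8 and 15 CPM in lung (log2FC 1.85 ± 0.18, adjusted p = 2.43e-07). Itgb7, a leukocyte homing subunit, stood at 50.9, 61.4 and 86.4 CPM in breast against 0.913, 4.31 and 11.1 CPM in lung (log2FC 3.67 ± 0.54, adjusted p = 5.22e-05). Itgb1, the common beta subunit, was at 454, 628 and 830.4 CPM in breast against 729, 825 and 1091 CPM in lung and did not pass (adjusted p = 0.159). In the list of 27 tested laminins and integrins 5 were higher and 4 lower.

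Matrix-degrading enzymes held very large differences in single genes. Mmp3, stromelysin 1, stood at 222, 1005 and 1939 CPM in breast and 0.545, 1.95 and 2.90 CPM in lung (log2FC 9.05 ± 0.60, adjusted p = 2.01e-09), and the lowest breast library lay far above the highest lung library. Its chromosome 9 neighbour Mmp10, stromelysin 2, ran at 25.6, 45.8 and 76.3 CPM in breast against 1.83, 3.41 and 3.80 CPM in lung (log2FC 3.91 ± 0.27, adjusted p = 2.80e-09). Mmp1a, an interstitial collagenase gene beside them, had 1325 reads in breast and none in lung, at least 515-fold higher. The annotation types Mmp1a as a polymorphic pseudogene. Its paralog Mmp1b, which could share reads with it, had 261 reads in breast and 2 in lung. Mmp14, a membrane-bound collagenase, was higher (log2FC 2.22 ± 0.28, adjusted p = 8.74e-06), and Mmp13, collagenase 3, was lower with overlapping ranges (log2FC -2.48 ± 0.51, adjusted p = 0.00148). Adamts5, an aggrecanase, ran at 7.75, 15.2 and 19.6 CPM in lung and 2.05, 3.03 and 3.74 CPM in breast (log2FC -2.28 ± 0.21, adjusted p = 1.22e-07). The disintegrin protease Adam12 stood at 10.4, 12.9 and 17.8 CPM in lung and 1.54, 4.14 and 5.12 CPM in breast (log2FC -1.76 ± 0.21, adjusted p = 3.74e-06). Timp2, an inhibitor of metalloproteinases, was lower at 317, 362 and 378 CPM in breast against 645, 803 and 836 CPM in lung (log2FC -1.11 ± 0.11, adjusted p = 6.94e-07). Over the 21 proteases and inhibitors 5 were higher and 6 lower, with a median of -0.07.

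In the plasmin system the activator and an inhibitor went opposite ways. Plau, urokinase, stood at 229, 303 and 401 CPM in breast against 14.7, 24.3 and 39.4 CPM in lung (log2FC 3.57 ± 0.36, adjusted p = 5.82e-07). Serpinb2, its inhibitor PAI-2, ran at 15.9, 24.4 and 52 CPM in lung and 0.300, 0.520 and 0.839 CPM in breast (log2FC -5.68 ± 0.40, adjusted p = 4.11e-09). In both genes the models were fully apart. The serpins Serpinb9b, Serpinb6b and Serpinb9, inhibitors of granzyme-type and related proteases, had a log2FC of 3.31, 2.22 and 1.19. They are close paralogs and their reads could be shared. Serpine2, protease nexin 1, at 157, 183 and 218 CPM in breast against 179, 219.9 and 240.2 CPM in lung, did not pass (adjusted p = 0.363). Of 14 tested cathepsins and cystatins, the lysosomal proteases and their inhibitors, 4 were higher and 3 lower. Ctsl, cathepsin L, ran at 591, 901 and 1391 CPM in breast against 338, 401 and 511 CPM in lung (log2FC 1.08 ± 0.23, adjusted p = 0.00182). Ctsb, cathepsin B, was more abundant and ran at 1803, 2018 and 2605 CPM in breast against 1114, 1399.8 and 1675 CPM in lung (log2FC 0.58 ± 0.13, adjusted p = 0.00420). The gastric protease Ctse stood at 5.14, 9.76 and 32.9 CPM in lung and 0.546, 1.19 and 1.65 CPM in breast (log2FC -3.57 ± 0.41, adjusted p = 3.14e-06). Of 16 genes of perineuronal nets and hyaluronan only Has2 and Acan were called. Has2, a hyaluronan synthase, stood at 32.2, 67.7 and 110.3 CPM in lung and 0.273, 1.18 and 2.44 CPM in breast (log2FC -5.65 ± 0.36, adjusted p = 1.09e-09). Acan, the aggrecan core protein, ran at 19.6, 25.1 and 28.2 CPM in lung and 1.54, 2.07 and 3.86 CPM in breast (log2FC -3.43 ± 0.27, adjusted p = 1.72e-08). The brain proteoglycan Bcan, at 102, 147 and 207 CPM in breast against 119, 174 and 209.8 CPM in lung, did not pass (adjusted p = 0.688).

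Genes of the TGF-beta and BMP pathway, growth factors that set cell fate and matrix production, were largely lower in breast. All 28 were tested, 15 were lower and 3 higher, and the median was -0.69. Without the libraries poor in long transcripts 16 were lower, and without lung 8 and 10, 15. Among ligands, Inhba, the activin A subunit, stood at 282, 385 and 432 CPM in lung and 9.28, 15.1 and 30.1 CPM in breast (log2FC -4.42 ± 0.40, adjusted p = 1.05e-07). The BMP ligand Bmp2 ran at 66.4, 100.04 and 108 CPM in lung and 3.69, 4.45 and 5.12 CPM in breast (log2FC -4.37 ± 0.18, adjusted p = 8.62e-12). The 3 TGF-beta genes Tgfb1, Tgfb2 and Tgfb3 had a log2FC of -1.01, -1.002 and -0.63. The ligands Bmp4 and Bmp7 had -1.05 and -0.76. None of these ligands' ranges overlapped. Ltbp2, a latent TGF-beta binding protein homologue of the matrix, ran at 5.01, 5.97 and 7.49 CPM in lung and 0.824, 1.15 and 1.65 CPM in breast (log2FC -2.35 ± 0.20, adjusted p = 6.96e-08). Among targets and feedback inhibitors, Smad6, the inhibitory Smad of the BMP branch, stood at 25.1, 38.4 and 41.4 CPM in lung and 0.839, 2.15 and 3.94 CPM in breast (log2FC -4.04 ± 0.33, adjusted p = 2.90e-08). Id3, a BMP-induced inhibitor of differentiation factors, ran at 169.5, 235 and 335 CPM in lung and 46.1, 50.5 and 74.9 CPM in breast (log2FC -2.13 ± 0.19, adjusted p = 8.31e-08). Id1 and the inhibitory Smad7 had a log2FC of -1.84 and -0.96. Id2 at 90.8, 101 and 134 CPM in breast against 114, 119.6 and 147 CPM in lung did not pass (adjusted p = 0.334). Nor did the receptor Bmpr1a, at 85.8, 94.5 and 105 CPM in breast against 74.8, 88.1 and 91.5 CPM in lung (adjusted p = 0.199). The 3 higher members were the ligand Gdf15 (3.45), the activin-binding Fstl3 (2.69) and the coreceptor Tgfbr3 (1.63).

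Other developmental pathways leaned the same way in part. In the Wnt list 29 of 30 were tested, 11 were lower and 2 higher. The receptors Fzd6, Fzd2 and Fzd1 were lower, Fzd6 at 30.6, 43.1 and 54.9 CPM in lung and 11.6, 13.5 and 16.5 CPM in breast (log2FC -1.68 ± 0.18, adjusted p = 8.41e-07). So was the feedback deacylase Notum, at 3.99, 5.63 and 7.97 CPM in lung and 1.23, 1.57 and 2.32 CPM in breast (log2FC -1.77 ± 0.23, adjusted p = 1.42e-05). The ligand Wnt6 was higher at 2.36, 5.07 and 11.2 CPM in breast against 0.475, 1.05 and 1.64 CPM in lung (log2FC 2.40 ± 0.31, adjusted p = 1.34e-05). In the Notch list 4 of 17 were lower and 1 higher, with 3 higher without the libraries poor in long transcripts. The ligand Jag1 stood at 46.4, 58.9 and 65.7 CPM in lung and 7.10, 11.1 and 15.8 CPM in breast (log2FC -2.29 ± 0.19, adjusted p = 3.68e-08). The targets Hes1, Nrarp and Hey1 had a log2FC of -1.35, -0.92 and -0.83, each without overlap. Notch4, a receptor of endothelium, was higher at 22.4, 29.4 and 42.8 CPM in breast against 6.87, 9.23 and 10.2 CPM in lung (log2FC 1.85 ± 0.20, adjusted p = 1.45e-06). The receptors Notch1 and Notch2 did not pass (adjusted p = 0.225 and 0.0918). Of 13 tested Hippo pathway genes 4 were lower, among them the YAP target Ankrd1 at 27.1, 37.3 and 65.6 CPM in lung and 0.699, 1.08 and 1.97 CPM in breast (log2FC -4.98 ± 0.31, adjusted p = 8.17e-10). Ccn2, connective tissue growth factor and also a YAP target, ran at 107, 135 and 188 CPM in lung and 21.4, 33.6 and 37.1 CPM in breast (log2FC -2.12 ± 0.18, adjusted p = 3.85e-08). The YAP partner Tead4 was higher at 20.2, 29.2 and 41.9 CPM in breast against 2.90, 3.77 and 4.50 CPM in lung (log2FC 3.04 ± 0.22, adjusted p = 5.80e-09). MAP kinase feedback and AP-1 genes showed 3 higher and 3 lower of 22. The feedback inhibitor Spry4 ran at 20.1, 25.1 and 33 CPM in breast against 7.73, 10.6 and 11.7 CPM in lung (log2FC 1.38 ± 0.14, adjusted p = 7.66e-07). The AP-1 subunit Fosl1 stood at 71.4, 88.6 and 122 CPM in breast against 14.1, 20.5 and 29.6 CPM in lung (log2FC 2.15 ± 0.29, adjusted p = 2.40e-05). Among ErbB ligands, Btc was lower at 4.32, 6.84 and 12.7 CPM in lung and 0.472, 0.827 and 1.10 CPM in breast (log2FC -3.25 ± 0.29, adjusted p = 1.11e-07). The ligands Hbegf and Nrg1 had a log2FC of -0.77 and -0.83.

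Part of the interferon-stimulated genes was higher in the breast model. All 35 members of the type I list were tested, 11 were higher and none lower, and the median was 1.05. Without the libraries poor in long transcripts 7 were called, and without lung 8 and 10, the libraries lowest in this list, 5. Leaving out single libraries gave 6 to 13, with 6 without lung 8, 10 or 11 or breast 16, 17 or 18. DESeq2 called 15, limma 20, and edgeR on the 12 libraries alone 23. Ifi44, an interferon-induced cytoplasmic protein, stood at 54.5, 119 and 205 CPM in breast against 9.10, 22.3 and 36.8 CPM in lung (log2FC 2.41 ± 0.54, adjusted p = 0.00312). Oasl1, an oligoadenylate synthetase-like regulator, ran at 40.6, 64.1 and 91.6 CPM in breast against 4.73, 13.6 and 19.9 CPM in lung (log2FC 2.42 ± 0.59, adjusted p = 0.00599). Samd9l, an antiviral restriction factor, ran at 69.3, 109.5 and 135 CPM in breast against 17.5, 36.6 and 52.2 CPM in lung (log2FC 1.59 ± 0.36, adjusted p = 0.00394). In these 3 genes every breast library was above every lung library. The same held for Rsad2, viperin, at 72.4, 171 and 286 CPM in breast against 10.6, 20.9 and 32.1 CPM in lung (log2FC 3.09 ± 0.61, adjusted p = 0.00106). Cmpk2, the neighbour of Rsad2, ran at 70.4, 125 and 175 CPM in breast against 43.3, 61.2 and 77 CPM in lung with overlapping ranges (log2FC 1.05 ± 0.24, adjusted p = 0.00337). The virion tether Bst2, at 197, 327 and 567 CPM in breast against 28.1, 117 and 218 CPM in lung, missed the threshold (adjusted p = 0.0957). The entry restriction factor Ifitm3, at 217, 310.1 and 438 CPM in breast against 50.5, 139 and 207 CPM in lung, missed it as well (adjusted p = 0.0580).

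Among 18 tested interferon ligands, receptors and sensors, which act upstream of these genes, 2 were higher and 1 lower, with a median of 0.06. The share called was close to the 18.1% over all genes. The DNA sensor Cgas was higher at 8.58, 10.7 and 17.3 CPM in breast against 2.90, 4.63 and 6.17 CPM in lung (log2FC 1.33 ± 0.35, adjusted p = 0.00984). The kinase Tbk1 differed little, at 68.1, 80.7 and 82.8 CPM in breast against 57.3, 61.4 and 71.3 CPM in lung (log2FC 0.32 ± 0.08, adjusted p = 0.0115). Without lung 8 and 10 neither of them was called. The interferon lambda receptor Ifnlr1, an epithelial receptor, was lower at 0.394, 0.555 and 0.898 CPM in breast against 1.80, 2.60 and 4.43 CPM in lung (log2FC -2.23 ± 0.29, adjusted p = 1.18e-05). Jak1 did not pass, at 158, 222 and 237 CPM in breast against 157, 178 and 200.2 CPM in lung (adjusted p = 0.358). The Ifi200 cluster on chromosome 1, which encodes DNA-binding interferon-induced proteins, had 6 of 12 tested members higher and 1 lower. Ifi208 ran at 6.61, 12.4 and 16.2 CPM in breast against 0.778, 2.56 and 3.55 CPM in lung (log2FC 2.35 ± 0.37, adjusted p = 9.45e-05). Ifi213 stood at 17.3, 26 and 33.4 CPM in breast against 4.90, 6.34 and 15.3 CPM in lung (log2FC 1.54 ± 0.41, adjusted p = 0.0112). Ifi207 was at 32.8, 41.1 and 52.9 CPM in breast against 7.88, 14.6 and 19.14 CPM in lung (log2FC 1.62 ± 0.44, adjusted p = 0.0131). The lower one was Ifi202b, with 5694 reads in lung and 3 in breast. The ratio was 1628 (95% counting interval 557 to 7897). These genes are paralogs and reads could be split between them. Without lung 8 and 10 the higher count of the cluster was 2.

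Genes that answer mainly to interferon gamma gave no call: 0 of 15 tested passed edgeR's adjusted p and the median was -0.78. An unadjusted p under 0.05 was reached by 1, and DESeq2 and limma called 1 and 0. Gbp2, a guanylate-binding GTPase, stood at 129, 229.8 and 357 CPM in breast against 19, 525 and 1359 CPM in lung, so the lung libraries spanned the breast range on both sides (adjusted p = 0.376). Irgm1 showed the same at 154, 200.4 and 297 CPM in breast against 48.9, 337 and 632 CPM in lung (adjusted p = 0.630). Antigen presentation was as scattered. Of 17 MHC class I pathway genes only Erap1, a peptide-trimming protease, was called, at 78.6, 97.8 and 124 CPM in breast against 22.9, 45.4 and 61.4 CPM in lung (log2FC 1.19 ± 0.34, adjusted p = 0.0196), and not without lung 8 and 10. DESeq2 called 2 genes of the list, limma 3, and edgeR without lung 7 3. H2-D1, a classical class I heavy chain, ran at 1363, 1517 and 1953 CPM in breast against 171, 624 and 1069 CPM in lung. Every breast library lay above every lung library, and the adjusted p was 0.0617. B2m, the class I light chain, was at 1102, 1327 and 1614 CPM in breast against 257, 838 and 1331 CPM in lung (adjusted p = 0.328). Of the 10 MHC class II genes 0 were called by edgeR. For them an unadjusted p under 0.05 was reached by 0, and DESeq2 and limma called 0 and 0. Cd74, the invariant chain, ranged over 48.2, 169 and 377 CPM in breast against 55.8, 272 and 706 CPM in lung (adjusted p = 0.758). The breast libraries were uneven as well. Their summed level of the class II list was 1503 CPM or more in breast 14 to 16 and 837 CPM or less in breast 17 to 19. In lung 8 and 10 the summed level of the class I list was 816 and 864 CPM, against 2557 CPM or more in the other 4 lung libraries.

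NF-kB genes were higher in the breast model with less scatter. Of 23 tested subunits and feedback inhibitors 11 were higher and none lower, and the median was 0.54. The count was 11 without the libraries poor in long transcripts and 9 without lung 8 and 10. Nfkbia, the inhibitor IkB alpha that NF-kB itself induces, stood at 97.1, 148 and 192 CPM in breast against 29.3, 44.3 and 62.2 CPM in lung (log2FC 1.62 ± 0.21, adjusted p = 1.28e-05). It lies in a run of 25 neighbouring genes on chromosome 12 of which 12 were higher and 2 lower. The subunit Nfkb2 ran at 67.4, 90.4 and 118 CPM in breast against 22.7, 32.2 and 47.2 CPM in lung (log2FC 1.47 ± 0.22, adjusted p = 5.27e-05). The subunit Rela, p65, ran at 63.9, 86.2 and 117 CPM in breast against 35.1, 44.8 and 58 CPM in lung (log2FC 0.97 ± 0.16, adjusted p = 1.51e-04). In these 3 genes every breast library was above every lung library. Tnip1, an inhibitor of the pathway, was higher at 62.1, 80.3 and 99.2 CPM in breast against 39.3, 41.6 and 46.9 CPM in lung (log2FC 0.89 ± 0.15, adjusted p = 1.96e-04). Nfkb1 and the ubiquitin ligase Birc3 had a log2FC of 0.85 and 1.09, both with overlapping ranges. The deubiquitinase Cyld, at 81.9, 116 and 131 CPM in breast against 87.9, 109 and 146 CPM in lung, did not pass (adjusted p = 0.905).

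**Figure D2:**
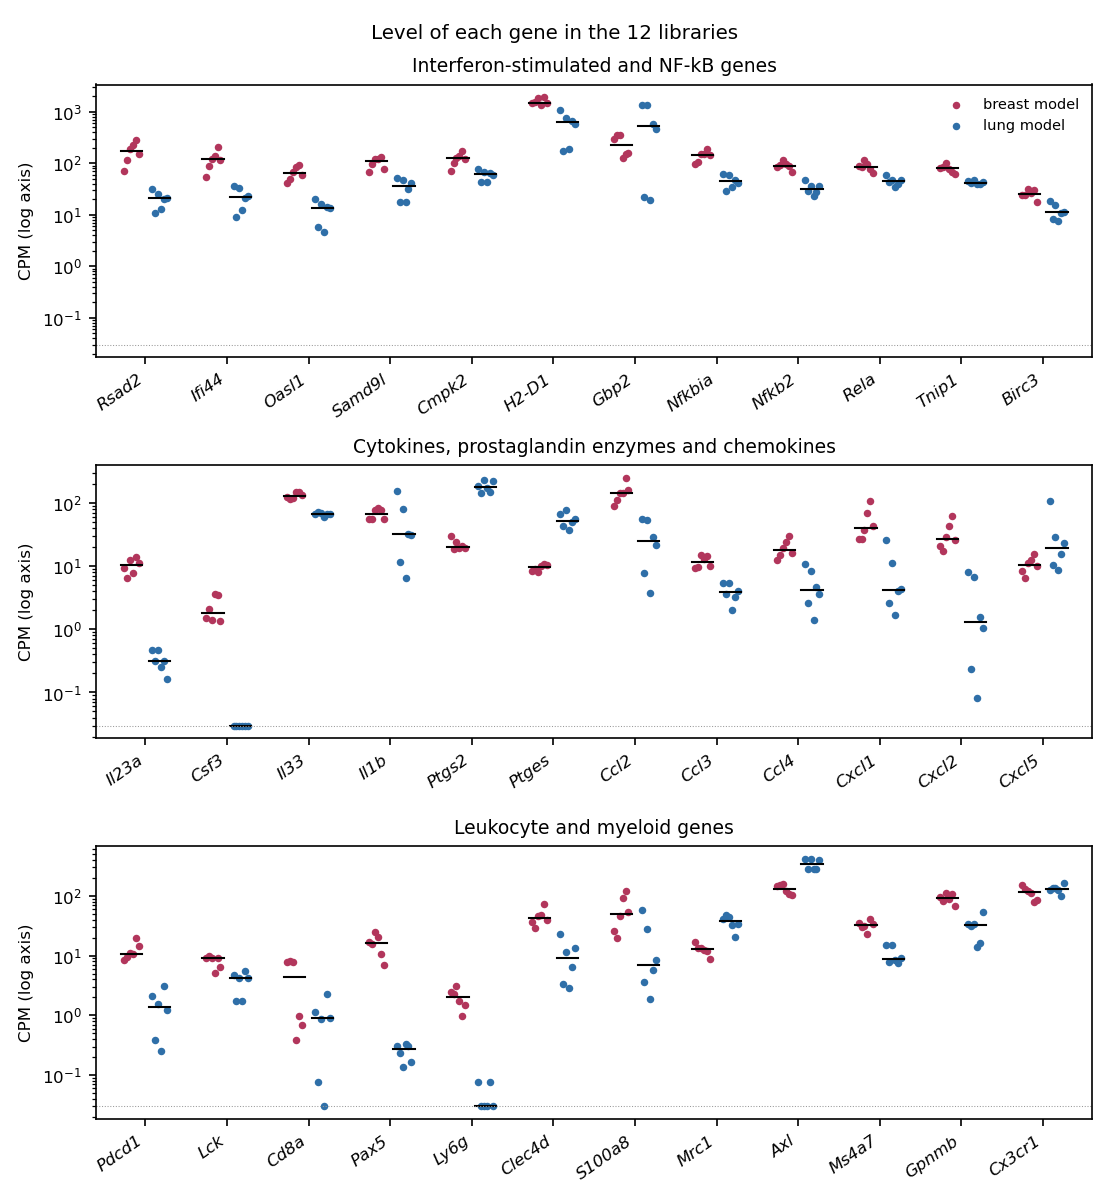
Level in CPM (log axis) of 36 interferon, NF-kB, cytokine, chemokine and leukocyte genes in each of the 6 breast and 6 lung libraries, 1 point a library and a bar at the median, with values of 0 drawn on the dotted line. NF-kB genes and Il33 form tight groups that do not meet or barely meet, whereas Gbp2, Il1b, Cd8a and S100a8 spread widely within a model.

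Secreted mediators moved both ways: of 20 tested cytokines and mediators 5 were higher and 4 lower, and without lung 8 and 10, 3 and 4. Il23a, the p19 subunit of interleukin 23, stood at 6.36, 10.2 and 13.7 CPM in breast against 0.164, 0.312 and 0.475 CPM in lung (log2FC 4.88 ± 0.45, adjusted p = 1.69e-07). Csf3, which encodes the granulocyte growth factor G-CSF, ran at 1.36, 1.80 and 3.55 CPM in breast and had no read in lung, at least 56.7-fold higher. Il33, an alarmin stored in the nuclei of oligodendrocytes and astrocytes, was at 115, 128 and 146 CPM in breast against 60.3, 66.4 and 70.6 CPM in lung (log2FC 0.98 ± 0.12, adjusted p = 3.69e-06), and its ranges were narrow and apart. The prostaglandin enzymes were lower. Ptgs2, cyclooxygenase 2, ran at 144, 177 and 232 CPM in lung and 18.6, 20.1 and 29.9 CPM in breast (log2FC -3.06 ± 0.23, adjusted p = 8.03e-09). Ptges, prostaglandin E synthase, ran at 37.8, 52.4 and 76.1 CPM in lung and 8.08, 9.54 and 10.9 CPM in breast (log2FC -2.53 ± 0.16, adjusted p = 1.17e-09). Il1b, interleukin 1 beta, at 55, 66.4 and 83.4 CPM in breast against 6.47, 31.9 and 157 CPM in lung, did not pass (adjusted p = 0.719). Its antagonist Il1rn, at 28.7, 42.3 and 54.3 CPM in breast against 2.32, 12.4 and 42.5 CPM in lung, did not either (adjusted p = 0.122).

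Several chemokines that draw neutrophils and monocytes were higher in breast. Cxcl2, a ligand of the main neutrophil chemokine receptor, stood at 17.4, 27.2 and 61 CPM in breast against 0.0830, 1.31 and 8.18 CPM in lung (log2FC 3.44 ± 0.63, adjusted p = 5.78e-04). Cxcl1, a second ligand of that receptor, ran at 26.8, 40.5 and 107 CPM in breast against 1.66, 4.16 and 26.2 CPM in lung (log2FC 2.62 ± 0.56, adjusted p = 0.00216). Ccl2, the main monocyte attractant, ran at 88.8, 144 and 249.6 CPM in breast against 3.73, 25.4 and 54.6 CPM in lung (log2FC 2.39 ± 0.60, adjusted p = 0.00743). The macrophage inflammatory protein Ccl3 stood at 9.21, 11.5 and 14.9 CPM in breast against 1.99, 3.87 and 5.40 CPM in lung (log2FC 1.58 ± 0.37, adjusted p = 0.00478). Its neighbour Ccl4 stood at 12.4, 17.7 and 29.8 CPM in breast against 1.41, 4.15 and 10.7 CPM in lung (log2FC 1.87 ± 0.46, adjusted p = 0.00710). The lowest breast library lay above the highest lung library in all 5, although for Cxcl1 by little. In the CC family 4 of 12 tested genes were higher and none lower, and in the CXC and CX3C family 2 higher and 1 lower of 12. The lower one, Cxcl5, ran at 6.44, 10.6 and 15.7 CPM in breast against 8.55, 19.3 and 107 CPM in lung (log2FC -1.60 ± 0.48, adjusted p = 0.0262). Lung library 7 held the highest value, and without it the gene was not called. Cxcl10, the interferon-induced T cell attractant, was at 126, 160.04 and 224 CPM in breast against 15.1, 97.6 and 180.1 CPM in lung and did not pass (adjusted p = 0.395). Of 12 chemokine receptors 3 were higher and 1 lower, and without lung 8 and 10 none was higher. Ccr7, the lymph node homing receptor, ran at 4.10, 6.74 and 10.6 CPM in breast against 0.747, 2.55 and 4.01 CPM in lung (log2FC 1.56 ± 0.42, adjusted p = 0.0123). The scavenger Ackr3 had a log2FC of -0.84.

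Some leukocyte genes were higher in breast, mostly at low levels. Of 10 tested neutrophil genes 3 were higher and none lower, and the count was again 3 without the libraries poor in long transcripts and 3 without lung 8 and 10. Clec4d, a C-type lectin of myeloid cells, stood at 29.1, 42.8 and 74.2 CPM in breast against 2.90, 9.09 and 22.8 CPM in lung (log2FC 2.17 ± 0.39, adjusted p = 4.27e-04). Reads of Ly6g, the surface protein that defines neutrophils, numbered 144 over the breast and 2 over the lung libraries. The list members Camp, Ltf, Ngp, Elane and Mpo had too few reads to be tested. They had 3, 15, 14, 2 and 7 reads in breast and 7, 20, 12, 0 and 6 in lung. S100a8, the alarmin stored in neutrophils, was at 20.1, 50.2 and 119 CPM in breast against 1.91, 7.11 and 57.2 CPM in lung and missed the threshold (adjusted p = 0.0661). The summed level of the list was 154 to 397 CPM in breast and 35.4 to 302 CPM in lung libraries, so the sums overlapped. Among 26 tested T and NK cell genes 5 were higher and none lower, and without lung 8 and 10 none was called. Of these 26, 8 were higher without the libraries poor in long transcripts, and limma called 11. The T cell receptor kinase Lck ran at 5.05, 9.10 and 9.73 CPM in breast against 1.71, 4.23 and 5.48 CPM in lung (log2FC 1.13 ± 0.34, adjusted p = 0.0248). Cd8a, the coreceptor of cytotoxic T cells, lay at 7.95, 8.24 and 7.71 CPM in breast libraries 14 to 16. In breast 17 to 19 it lay at 0.394, 0.979 and 0.682 CPM, within the lung range of 0, 0.890 and 2.27 CPM, and it did not pass (adjusted p = 0.115). The inhibitory receptor Pdcd1, PD-1, was above every lung value in every breast library at 8.50, 10.8 and 19.996 CPM in breast against 0.249, 1.39 and 3.05 CPM in lung (log2FC 3.10 ± 0.57, adjusted p = 5.56e-04). Pvr, the poliovirus receptor that binds TIGIT and is found on tumour and endothelial cells, ran at 54.5, 62.4 and 81.4 CPM in breast against 11.7, 18.5 and 25.4 CPM in lung (log2FC 1.84 ± 0.26, adjusted p = 3.39e-05). Cd276, B7-H3, was lower at 14.5, 21 and 26 CPM in breast against 29.9, 38.9 and 42.4 CPM in lung (log2FC -0.83 ± 0.15, adjusted p = 4.59e-04). Pax5, the B lineage transcription factor, was the only called gene of 5 tested in the B cell list, at 6.96, 16.3 and 25.3 CPM in breast against 0.136, 0.271 and 0.332 CPM in lung (log2FC 5.98 ± 0.37, adjusted p = 7.19e-10). Cd79a, the B cell receptor chain, was not tested and had 186 reads in breast and 19 in lung.

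Of 14 tested genes of homeostatic microglia 0 were called by edgeR, and the median was -0.21. Here an unadjusted p under 0.05 was reached by 1, and DESeq2 and limma called 0 and 0. Cx3cr1, the fractalkine receptor, stood at 80.1, 117 and 155 CPM in breast against 101, 131 and 163 CPM in lung (adjusted p = 0.544). Genes of activated and border-associated myeloid cells differed in opposite directions. Mrc1, the mannose receptor of border macrophages, ran at 20.9, 37.7 and 47.8 CPM in lung and 8.74, 12.8 and 16.9 CPM in breast (log2FC -1.52 ± 0.22, adjusted p = 3.89e-05). The folate receptor Folr2 ran at 2.74, 5.11 and 6.98 CPM in lung and 1.87, 2.54 and 3.50 CPM in breast (log2FC -0.97 ± 0.25, adjusted p = 0.00910). Axl, a receptor for apoptotic cell bridging proteins that tumour cells can also carry, was lower at 105, 132 and 158 CPM in breast against 279.8, 345 and 420.4 CPM in lung (log2FC -1.41 ± 0.24, adjusted p = 2.72e-04). In contrast, Ms4a7, a membrane protein of macrophages, stood at 22.9, 33.1 and 40.4 CPM in breast against 7.67, 8.73 and 15.2 CPM in lung (log2FC 1.63 ± 0.35, adjusted p = 0.00215). Gpnmb, a glycoprotein of lipid-laden phagocytes, was also higher at 66.6, 93.5 and 111 CPM in breast against 13.9, 32.4 and 54.5 CPM in lung (log2FC 1.59 ± 0.45, adjusted p = 0.0185). Mrc1, Axl, Ms4a7 and Gpnmb had separate ranges and Folr2 did not. Gpnmb was not called without lung 8 and 10. The lysozyme gene Lyz2, at 299, 426 and 578 CPM in breast against 314, 567 and 863 CPM in lung, did not pass (adjusted p = 0.695). Apoe, the brain's main apolipoprotein, was at 1677, 2394 and 2664 CPM in breast against 2128, 2447 and 2649 CPM in lung (adjusted p = 0.603). The complement gene C1qa was at 258, 336 and 412 CPM in breast against 216, 403 and 545 CPM in lung (adjusted p = 0.602). Of 18 monocyte and border macrophage genes 5 were higher and 2 lower, and the higher count was 3 without the libraries poor in long transcripts and 1 without lung 8 and 10.

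Among astrocyte genes 4 of 21 reactive genes were higher and 1 lower. Nes, nestin, stood at 52.4, 94.5 and 131 CPM in breast against 30.3, 34.9 and 49.7 CPM in lung (log2FC 1.26 ± 0.27, adjusted p = 0.00218). Ggta1, a galactosyltransferase of reactive astrocytes, ran at 62.5, 78.2 and 105 CPM in breast against 24.8, 30.6 and 43.7 CPM in lung (log2FC 1.32 ± 0.16, adjusted p = 5.19e-06). Steap4, a metalloreductase, was at 6.96, 10.2 and 11.7 CPM in breast against 1.91, 3.19 and 6.30 CPM in lung (log2FC 1.38 ± 0.24, adjusted p = 3.16e-04). Gfap and Vim, further intermediate filament genes, did not pass. Gfap was at 1657, 1726 and 1915 CPM in breast against 1494, 1844 and 3009 CPM in lung (adjusted p = 0.448). Vim, vimentin, was at 1288, 1776 and 2146 CPM in breast against 1986, 2685 and 3802 CPM in lung (adjusted p = 0.113). Of 18 homeostatic astrocyte genes 0 were called by edgeR. In this list an unadjusted p under 0.05 was reached by 1, and DESeq2 and limma called 0 and 0. Glul, glutamine synthetase, ran at 853, 1089 and 1236 CPM in breast against 952, 1084 and 1374 CPM in lung. The glutamate transporter Slc1a2 was at 391, 665 and 1013 CPM in breast against 461, 792 and 1165 CPM in lung. Oligodendrocyte genes differed in 1 of 15, Aspa (-0.40), and Mbp, myelin basic protein, was at 1555, 2392 and 3675 CPM in breast against 1738, 2143 and 3179 CPM in lung (adjusted p = 0.807). Pdgfra, which marks oligodendrocyte precursors and also mesenchymal cells, was higher at 119, 151 and 199 CPM in breast against 30.5, 48.3 and 52.6 CPM in lung (log2FC 1.79 ± 0.24, adjusted p = 1.80e-05), the only one of 11 precursor genes. Bcas1 and Olig1, further members of that lineage, did not pass (adjusted p = 0.757 and 0.607).

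Neuronal genes gave few calls. Of 17 tested neuron genes 2 were lower, and neither was called without lung 8 and 10. The glutamate transporter Slc17a7 stood at 300.2, 572 and 649 CPM in breast against 692, 805 and 977 CPM in lung (log2FC -0.62 ± 0.20, adjusted p = 0.0356). The synapsin Syn2 ran at 172, 239 and 261 CPM in breast against 333, 341 and 397 CPM in lung (log2FC -0.58 ± 0.17, adjusted p = 0.0235). Snap25, a synaptic vesicle fusion protein, was at 1230.5, 1551 and 1632 CPM in breast against 1504, 1837 and 2014 CPM in lung (adjusted p = 0.191). Of 19 glutamate receptor and scaffold genes, 24 GABA and interneuron genes and 21 ion channel genes edgeR called 0, with medians of -0.19, -0.20 and -0.22. At an unadjusted p under 0.05 the counts were 0, 2 and 1, DESeq2 called 0, 1 and 0, and limma 0, 0 and 0. Without the libraries poor in long transcripts 7 of the 24 GABA genes were lower. Genes that mark single brain regions were mostly uncalled, as were genes at large, of which 18.1% were called. Of 11 cortex genes Rorb was higher (log2FC 0.84) and Cux1 lower (-0.52), and of 10 hippocampus genes Neurod2 (-0.76) and Dsp (-1.26) were lower. Both shares were close to that over all genes. Of 10 striatum genes edgeR called 0. Here too, an unadjusted p under 0.05 was reached by 0, and DESeq2 and limma called 0 and 0. Aqp1, a choroid plexus water channel that tumour cells can also carry, was lower at 3.50, 4.39 and 6.30 CPM in breast against 14.1, 17.4 and 30.2 CPM in lung (log2FC -2.09 ± 0.23, adjusted p = 1.84e-06). Ttr, the main choroid plexus transcript, stood at 314, 388 and 632 CPM in breast against 395, 567 and 826 CPM in lung (adjusted p = 0.144).

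Vessel genes differed in both directions. Of 13 tested genes of leaky and activated endothelium 3 were higher and 3 lower. Sele, E-selectin, which cytokines induce on endothelium, stood at 10.6, 11.9 and 15.8 CPM in breast against 0.581, 1.07 and 1.24 CPM in lung (log2FC 3.64 ± 0.24, adjusted p = 1.98e-09). Selp, P-selectin, went the other way and ran at 11.6, 13.5 and 16.9 CPM in lung and 1.40, 1.80 and 2.59 CPM in breast (log2FC -2.85 ± 0.26, adjusted p = 1.42e-07). Esm1, a tip-cell proteoglycan, was lower as well, at 7.70, 9.91 and 16.1 CPM in lung and 0.280, 0.461 and 0.682 CPM in breast (log2FC -4.45 ± 0.40, adjusted p = 1.18e-07). Each of the 3 genes split the models without overlap. Cdh5, VE-cadherin, was higher at 44.8, 59.6 and 83.2 CPM in breast against 15.7, 17.7 and 25.1 CPM in lung (log2FC 1.65 ± 0.20, adjusted p = 4.54e-06). So was the adhesion molecule Icam2, at 11.3, 20.5 and 32.2 CPM in breast against 3.07, 5.30 and 8.01 CPM in lung (log2FC 1.93 ± 0.35, adjusted p = 4.72e-04). The tight junction gene Cldn5 was lower with overlap, at 49.5, 53.7 and 63.6 CPM in breast against 60.8, 68.2 and 74.8 CPM in lung (log2FC -0.32 ± 0.10, adjusted p = 0.0280). Slc2a1, the glucose transporter of the barrier, ran at 164, 193 and 232 CPM in breast against 93.4, 111 and 132 CPM in lung (log2FC 0.83 ± 0.11, adjusted p = 1.74e-05). The efflux pump Abcb1a was lower, at 54.7, 70.5 and 77 CPM in lung and 19.7, 31.5 and 34.7 CPM in breast (log2FC -1.24 ± 0.22, adjusted p = 4.81e-04). Cdh5, Slc2a1, Cldn5 and Abcb1a were the only called genes of 20 tested in the blood-brain barrier list. Its median was -0.01, and the share called was close to that over all genes. Anpep, aminopeptidase N of pericytes and some tumour cells, was higher at 33.6, 49.1 and 66.8 CPM in breast against 4.82, 10.2 and 17.8 CPM in lung (log2FC 2.27 ± 0.31, adjusted p = 2.16e-05). The pericyte gene Rgs5 was at 49.2, 60.3 and 71.1 CPM in breast against 46.4, 66.9 and 80.8 CPM in lung (adjusted p = 0.647). In the angiogenic list 5 of 15 were lower and 3 higher. Pdgfc stood at 27.4, 33.8 and 44.9 CPM in lung and 5.31, 7.01 and 8.16 CPM in breast (log2FC -2.30 ± 0.16, adjusted p = 4.01e-09). The growth factor Fgf2 ran at 20.6, 26.6 and 31.7 CPM in lung and 8.05, 10.1 and 11.7 CPM in breast (log2FC -1.39 ± 0.16, adjusted p = 3.84e-06). Angptl4, an angiopoietin-like lipase inhibitor, ran at 44.7, 75.2 and 124 CPM in lung and 15.2, 19.6 and 25.8 CPM in breast (log2FC -1.95 ± 0.28, adjusted p = 4.46e-05). Vegfa and Vegfb had a log2FC of -0.66 and 0.45, both with overlapping ranges.

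**Figure D3:**
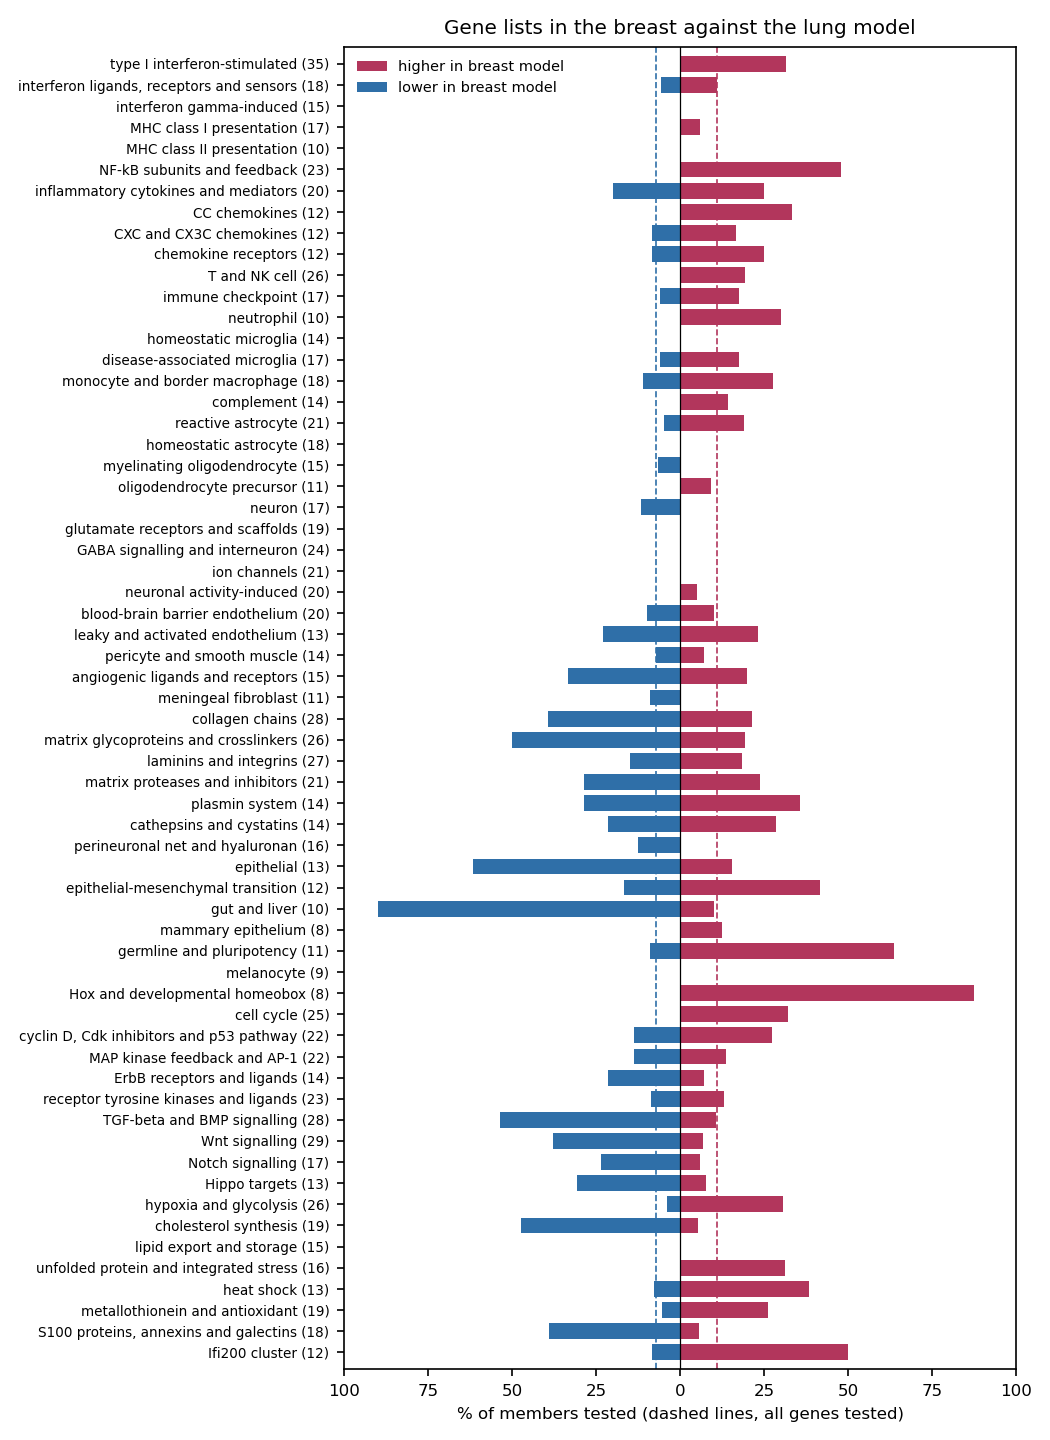
Share of tested members of each gene list drawn that were higher (right) or lower (left) in the breast model at an adjusted p of 0.05, with the number tested in brackets and dashed lines at the shares over all genes, 11% and 7.15%. Lists with few tested members, the brain region lists and the ribosomal list are not drawn. Gut and liver, epithelial, TGF-beta and BMP, matrix glycoprotein and cholesterol lists reach far to the left, the Hox, germline and NF-kB lists to the right, and the glutamate, GABA, ion channel, homeostatic astrocyte and homeostatic microglia lists show no bar.

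Hypoxia and glycolysis genes were higher in 8 of 26 and lower in 1. Egln3, an oxygen-sensing prolyl hydroxylase, stood at 35.7, 59.6 and 71.7 CPM in breast against 8.22, 10.7 and 13.4 CPM in lung (log2FC 2.36 ± 0.20, adjusted p = 6.98e-08). Adm, the vasodilator peptide adrenomedullin, ran at 17.2, 35.8 and 51.7 CPM in breast against 2.49, 4.97 and 8.68 CPM in lung (log2FC 2.66 ± 0.30, adjusted p = 2.31e-06). The lactate exporter Slc16a3 was at 114, 154 and 196 CPM in breast against 12.4, 24.4 and 52.3 CPM in lung (log2FC 2.47 ± 0.36, adjusted p = 4.83e-05). In all 3 the models did not overlap. The glycolytic enzyme Pkm was at 1184, 1273 and 1358 CPM in breast against 1327, 1437 and 1746 CPM in lung and did not pass (adjusted p = 0.197), and Vegfa, a hypoxia target as well, was lower. Cholesterol synthesis genes were lower in 9 of 19 and higher in 1, with a median of -0.45. The epoxidase Sqle ran at 109, 117 and 130.5 CPM in lung and 62.4, 72.7 and 77 CPM in breast (log2FC -0.72 ± 0.14, adjusted p = 0.00129). This was a small difference with separate ranges.

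Several stress and iron genes were higher. Hmox1, heme oxygenase 1, stood at 196, 325 and 387 CPM in breast against 31.9, 48.1 and 135 CPM in lung (log2FC 2.22 ± 0.45, adjusted p = 0.00135). The ferritin subunits Fth1 and Ftl1 had a log2FC of 0.59 and 0.86 and were not called without lung 8 and 10. Of 16 unfolded protein and integrated stress genes 5 were higher and none lower, and without lung 8 and 10, 2 were higher. The endoplasmic chaperone Hsp90b1 ran at 787, 901 and 1063 CPM in breast against 429, 498 and 569.6 CPM in lung (log2FC 0.88 ± 0.14, adjusted p = 9.07e-05). The disulfide isomerase Pdia4 stood at 189, 242 and 339 CPM in breast against 73.8, 102 and 121 CPM in lung (log2FC 1.28 ± 0.24, adjusted p = 5.74e-04). Atf4, the stress transcription factor, had separate ranges at 186, 214 and 259 CPM in breast against 123, 139 and 168 CPM in lung but an adjusted p of 0.112. Of 13 heat shock genes 5 were higher, or 3 without lung 8 and 10. The cochaperone Bag3 was lower, at 18.6, 27.2 and 30.4 CPM in breast against 41.3, 55.8 and 62.1 CPM in lung (log2FC -1.07 ± 0.16, adjusted p = 7.54e-05). Odc1, the first enzyme of polyamine synthesis, was among the most abundant genes that were higher, at 494, 694 and 1205 CPM in breast against 79.7, 112 and 161 CPM in lung (log2FC 2.68 ± 0.32, adjusted p = 5.08e-06). Of 18 tested S100, annexin and galectin genes 1, Anxa11, was higher and 7 were lower, or 10 without the libraries poor in long transcripts. Annexins are calcium-dependent membrane-binding proteins. Anxa8 ran at 86.5, 106 and 176 CPM in lung and 1.26, 1.42 and 2.77 CPM in breast (log2FC -6.08 ± 0.28, adjusted p = 2.11e-11). Anxa3 was at 125, 197 and 289 CPM in lung and 66, 72.3 and 112 CPM in breast (log2FC -1.36 ± 0.18, adjusted p = 1.39e-05). Anxa11 was higher, at 86.5, 98.9 and 125 CPM in breast against 40.1, 44.2 and 58.2 CPM in lung (log2FC 1.14 ± 0.12, adjusted p = 6.57e-07). Anxa1 was at 247, 466 and 896 CPM in breast against 277, 359.97 and 596 CPM in lung and did not pass (adjusted p = 0.698).

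**Figure D4:**
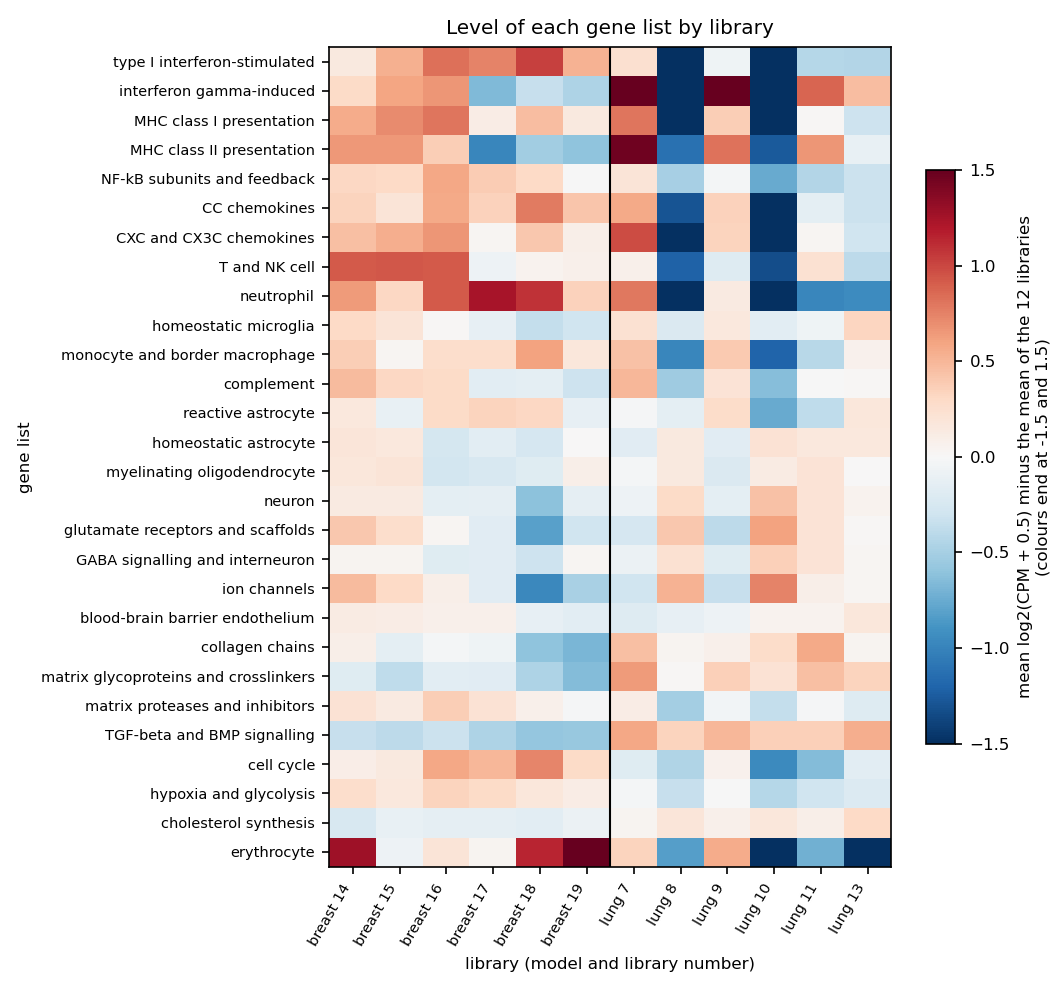
Mean log2(CPM + 0.5) of the tested members of 28 gene lists in each library (columns), centred on the mean of the 12 libraries, with breast on the left and lung on the right of the line. Lung 8 and lung 10 are the lowest columns of the interferon, MHC and chemokine rows, breast 18 is the lowest of the ion channel row, and the TGF-beta and BMP row is below 0 in every breast and above 0 in every lung library.

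Further genes outside the lists were named by the size of their difference, their p or their level. Higher in breast, the zinc finger gene Zfp985 had 1430 reads against 1 in lung. Ccbe1, a matrix protein that lymphatic vessels need to form, stood at 59.5, 75.9 and 112 CPM in breast against 4.75, 5.85 and 7.39 CPM in lung (log2FC 3.83 ± 0.22, adjusted p = 2.23e-10). Cpn1, a circulating carboxypeptidase, ran at 5.43, 7.33 and 9.51 CPM in breast against 0.543, 0.765 and 0.940 CPM in lung (log2FC 3.21 ± 0.18, adjusted p = 2.27e-10). Srpr, a subunit of the signal recognition particle receptor, was at 377, 549 and 765 CPM in breast against 92.6, 104 and 112 CPM in lung (log2FC 2.43 ± 0.21, adjusted p = 4.91e-08). Aplp2, an amyloid precursor-like protein, was the most abundant called gene over 2-fold higher, at 1088, 1189 and 1481 CPM in breast against 395, 511 and 611 CPM in lung (log2FC 1.29 ± 0.14, adjusted p = 1.10e-06). Aplp2, Srpr and St14 lie in 1 run of 25 neighbouring genes on chromosome 9 of which 17 were higher and none lower. Lower in breast, Tnfrsf11b, the decoy receptor osteoprotegerin, ran at 70.4, 115 and 137 CPM in lung and 3.55, 4.80 and 6.15 CPM in breast (log2FC -4.49 ± 0.21, adjusted p = 2.34e-11). The tetraspanin Tspan8 stood at 41, 66 and 93.7 CPM in lung and 0.472, 0.922 and 1.64 CPM in breast (log2FC -6.22 ± 0.29, adjusted p = 2.34e-11). The neuropeptide gene Qrfp was at 43.5, 55.7 and 108 CPM in lung and 0.140, 0.294 and 0.449 CPM in breast (log2FC -7.58 ± 0.31, adjusted p = 5.89e-12). Tsc22d1, a TGF-beta-inducible transcription regulator, stood at 674, 747 and 912 CPM in lung and 337, 371 and 424 CPM in breast (log2FC -1.05 ± 0.10, adjusted p = 3.94e-07). Tpm1, tropomyosin 1, ran at 539.96, 644 and 910.1 CPM in lung and 256, 283 and 301 CPM in breast (log2FC -1.27 ± 0.17, adjusted p = 2.19e-05). None of these genes overlapped between the models.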

How the data were processed

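RNA-seq was made from polyA-selected RNA with a directional kit, 1 brain a library, per the labels' protocols. The authors deposited raw counts per gene, which were used, and a table of normalized counts, which was not used here. Reads were demultiplexed with bcl2fastq and GRCm39 is named as build, per the submitters' processing notes; aligner, counting tool and annotation are not given in the sources used here. Gene symbols, chromosomes and transcript lengths came from GENCODE M21 (GRCm38) by gene ID, so no coordinates of genes are given, and promoters came from RefSeq's GRCm38.p6 table.

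Counts of all 18 libraries, 6 a model, were filtered with filterByExpr, scaled by TMM and fitted with edgeR 4.0.16 (robust quasi-likelihood F test, R 4.3.3), 1 coefficient a model. P-values of the contrast were adjusted by Benjamini-Hochberg over all 17174 genes that passed the filter, X and Y included, and genes on X, Y or no chromosome were left out afterwards. The standard error is the log2 fold change divided by the square root of F. The scripts were tested on simulated data. DESeq2 1.42.0 and limma 3.58.1 (voom) served as alternatives. The p-values set the difference between the models against the spread between brains within models, estimated over all 18 libraries, melanoma included. Intervals and limits from reads cover counting error only. Replicates are named by the library number in the labels, which is shared by no pair of libraries.

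The comparison, the 72 gene lists and the rule for genes named were chosen with earlier results of these data known. Named are the 12 called genes each way with the largest fold change at a mean of 1 CPM or more without overlap, the 12 each way of highest level among those over 2-fold, the 10 each way with the smallest p, and in every list the 5 called members of smallest p and the 2 uncalled of highest level. Mmp1b, Mmp13, Mmp14, Col1a1, Col1a2, Col3a1, Tgfb1, Tgfb2, Tgfb3, Bmp4, Bmp7, Id1, Smad7, Gdf15, Fstl3, Tgfbr3, Birc3, Tdrkh, Cd79a and Cd8a fall outside it and were chosen after their values were seen. Not all genes that the rule names are reported here. Roles of genes are general knowledge and no result.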

Additional observations from a re-analysis of the deposited data

Results flagged for a closer look

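Among the 240 genes of the text, looked at in the 6 libraries of each model, 18 values stood far from the 5 others of their model (gap to the nearest value over the whole range above Dixon's 95% limit). Chance flags about 1 in 20 such groups, so the number of them is no result. Breast library 18, one of the 2 shallow libraries poor in long transcripts, held 8 of the 18.

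In breast 18, Afp was at 120.1 CPM (36.8 to 67.4 in the other breast libraries), Anxa3 at 112 (66.0 to 79.3) and Cgas at 17.3 (8.58 to 11.8). The protease gene Ctsb was at 2605 CPM there (1803 to 2062 in the others). The germline gene Dnmt3l reached 10.6 (3.74 to 5.73), and the serpins Serpinb6b and Serpinb9b reached 129 (53.2 to 73.9) and 11 (3.74 to 5.46). The synapsin Syn2 was lowest in breast 18 at 172 CPM (232 to 261).

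In other breast libraries, Acan was at 3.86 CPM in breast 14 (1.54 to 2.25 in the others) and Sele at 15.8 in breast 16 (10.6 to 12.2). Ccn2 was lowest in breast 15 at 21.4 (32.0 to 37.1), Cdkn2a lowest in breast 19 at 0.273 (0.599 to 0.789), and Col6a1 highest in breast 17 at 66.2 (32.6 to 42.2).

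In the lung model, Cxcl5 was at 107 CPM in lung 7 (8.55 to 29.2 in the others), Qrfp at 108 in lung 9 (43.5 to 62.4) and Tbk1 at 71.3 in lung 9 (57.3 to 61.5). In lung 10 Syn2 was highest at 397 (333 to 351) and Trp53 lowest at 21 (24.5 to 25.9). The part of these single libraries in the results was not tested beyond leaving each out.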

How the results depend on the processing

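The count of genes higher in breast stayed within 1.5 times its value of 1809 under all alternatives but the test against a 1.5-fold change, which called 579 higher and 411 lower genes. The count of lower genes, 1181, rose to 1776 when the 12 libraries were fitted alone. It rose to 2216 without the 3 libraries poor in long transcripts (breast 18 and 19, melanoma 3), and to 2304 when lung 8 and 10 were left out as well, a setting chosen after seeing the data. The cause was not tested. Without the 3 libraries 46.6% of called genes were higher, against 60.5%, and when library totals replaced TMM it was 57.1%. Leaving out single libraries gave 1327 to 1801 higher and 993 to 1366 lower genes. Of the 200 called genes of the text, 156 stayed called under every alternative, and no called gene changed direction. Calls of 10 named genes were lost without a single library. The adjusted p of edgeR's test then ran up to 0.103 for Aspa (lost without each of 9 libraries in turn), to 0.0724 for Cldn5 (lung 9 or 13, breast 16 or 17), to 0.124 for Cxcl5 (lung 7, breast 14, 15 or 16) and to 0.0844 for Dsp (lung 8 or 10, breast 16, 17, 18 or 19). It ran up to 0.0756 for Ftl1 (lung 8, 10 or 11, breast 18), to 0.0509 for Gpnmb (lung 11), to 0.0583 for Lck (lung 8 or 10, breast 16 or 18), to 0.0791 for Slc17a7 (lung 8, 9, 10 or 13, breast 17), to 0.0525 for Syn2 (lung 10) and to 0.0700 for Tbk1 (lung 11, breast 18 or 19). No paired analysis was possible because the libraries of the 2 models share no replicate number. Depth limits calls of genes near 3 reads a model, and breast 18 and 19 were the shallowest libraries, at 7366250 and 7432159 reads.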

Other observations

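Genes higher in the breast model were uneven along the genome. Over 2749 windows of 25 consecutive tested protein-coding genes, ordered as in GENCODE M21, a window held a median of 3 higher genes, and its 95th percentile was 7. A window on chromosome 9 from Zbtb44 to Stt3a held 17 higher genes and none lower, with a median log2 fold change of 1.25. It includes the protease gene St14, the amyloid precursor-like Aplp2, the transcription factor Ets1, the checkpoint kinase Chek1, the Toll-like receptor adaptor Tirap and the receptor subunit Srpr. On chromosome 4, the window from Tmem51 to Nppb held 12 higher and 0 lower genes (median 0.76), among them a row of zinc finger genes with Zfp985. On chromosome 6, Bcat1 to Tmtc1 held 13 higher and 2 lower (median 0.61), and on chromosome 12, Cfl2 to Mia2 held 12 higher and 2 lower (median 0.39), Nfkbia among them. An overlapping window, Heatr5a to Slc25a21, held 11 higher and 0 lower (median 0.41), with Egln3 and Nfkbia. Elsewhere on chromosome 12, Kidins220 to Dus4l held 10 higher and 3 lower (median 0.29), with Rsad2, Cmpk2 and Lamb1. No window held more than 8 lower genes. The share of genes higher by chromosome ran from 7.20% on chromosome 17 to 17.2% on chromosome 14. The windows overlap and were chosen after their values were seen, so no test is given.

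Of 8 erythrocyte genes 4 were tested and all 4 were higher in breast, with a median log2 fold change of 1.22. Their list summed to 244 to 880.4 CPM in breast and 76.6 to 428 CPM in lung libraries. The counts of calls by edgeR were 0 without lung 8 and 10, and 0 without the libraries poor in long transcripts. Of 73 cytosolic ribosomal protein genes, a list chosen after seeing values, 9 were higher and 0 lower, with a median of 0.39. Without the libraries poor in long transcripts 5 were higher and 6 lower, and without lung 8 and 10, 2 and 1.

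The median log2 fold change moved with transcript length. In 5 equal groups of the tested genes from shortest to longest transcript it was 0.05, -0.01, -0.01, -0.04 and -0.07, and without the libraries poor in long transcripts -0.15, -0.12, -0.06, -0.03 and 0.03. Calls moved with it. The shortest group had 304 higher and 192 lower genes, and 223 and 552 without those libraries. The longest group had 304 higher and 191 lower, and 471 and 233 without them.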
